A study of Mus musculus with 6 samples.

Results

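The circadian clock genes examined here were 10 genes of the mouse clock, Arntl, Clock, Npas2, Per1, Per2, Per3, Cry1, Cry2, Dbp and Tef, chosen by name as core clock and clock output factors outside the nuclear receptors. They were read from every probe set that the platform annotation assigned to exactly 1 gene symbol equal to a listed name (or to Bmal1, the alias of Arntl). This gave 18 of the 22626 probe sets that remained without controls, and 10 of 12393 genes. Of the 10 genes, 9 were above the brightness filter and entered the test on 9295 genes, and Npas2 did not. The samples were 3 arrays of tetraploid and 3 arrays of diploid primary hepatocytes from mice of C57BL/6 wild type background, 3 weeks of age. Neither fraction carried an engineered allele or received an agent other than the Hoechst 33342 DNA dye used for the sort, after which RNA was extracted directly. The fractions rest on DNA content, so a diploid cell that has copied its DNA can fall in the tetraploid fraction. The labels name the replicates biological, give no time of day for their collection and do not say which animals they came from, so a p-value here reflects only how much these arrays varied, which may be technical in part.

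The mammalian clock is a feedback loop of transcription. The proteins of Arntl (BMAL1) and Clock, or its relative Npas2, pair and activate genes through E-boxes, among them the Per and Cry genes, whose proteins return to the nucleus and repress that pair. Dbp and Tef encode PAR bZIP factors that carry the rhythm to output genes through D-boxes, and REV-ERB and ROR nuclear receptors act on Arntl through ROR elements. In the liver this loop is known for driving daily rhythms of metabolism, and Arntl is known to peak at the opposite time of day to Dbp and the Per genes.

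RefSeq promoter windows (build GRCm38.p6, 250 bases before to 50 bases after a transcript start) matched 9 of the 10 genes, all but Per2, with 14 windows in all. They were searched on both strands for the E-box CACGTG, the related E'-box CACGTT, the D-box as TTATGTAA or TTACGTAA, and the ROR element core AGGTCA, none of which overlapped another in these windows. Shown are windows of the 2 genes whose signal was most uneven between arrays of a fraction, Arntl and Cry1, and of Per1 and Per3, which carry an E-box and the D-boxes. Capitals mark the motif matches.
Arntl, chr7:113207261-113207560, plus strand: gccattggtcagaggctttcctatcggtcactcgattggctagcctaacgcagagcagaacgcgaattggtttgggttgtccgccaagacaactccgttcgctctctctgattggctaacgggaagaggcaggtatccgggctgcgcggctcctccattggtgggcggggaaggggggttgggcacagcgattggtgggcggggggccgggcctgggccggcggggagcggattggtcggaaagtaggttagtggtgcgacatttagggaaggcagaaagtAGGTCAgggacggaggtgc
Cry1, chr10:85185005-85185304, minus strand: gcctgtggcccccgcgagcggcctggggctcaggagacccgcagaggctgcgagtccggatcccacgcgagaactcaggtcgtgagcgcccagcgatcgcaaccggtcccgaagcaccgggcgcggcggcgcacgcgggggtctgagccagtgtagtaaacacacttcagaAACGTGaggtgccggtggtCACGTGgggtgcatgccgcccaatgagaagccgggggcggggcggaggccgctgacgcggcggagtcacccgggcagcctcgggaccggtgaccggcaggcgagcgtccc
Per1, chr11:69098699-69098998, plus strand: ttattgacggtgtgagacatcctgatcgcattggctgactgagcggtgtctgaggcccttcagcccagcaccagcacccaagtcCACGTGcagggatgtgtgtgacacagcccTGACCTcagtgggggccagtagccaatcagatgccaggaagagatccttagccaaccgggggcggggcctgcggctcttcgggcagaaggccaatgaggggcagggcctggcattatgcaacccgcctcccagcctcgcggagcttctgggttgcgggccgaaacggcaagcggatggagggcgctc
Per3, chr4:151044616-151044915, minus strand: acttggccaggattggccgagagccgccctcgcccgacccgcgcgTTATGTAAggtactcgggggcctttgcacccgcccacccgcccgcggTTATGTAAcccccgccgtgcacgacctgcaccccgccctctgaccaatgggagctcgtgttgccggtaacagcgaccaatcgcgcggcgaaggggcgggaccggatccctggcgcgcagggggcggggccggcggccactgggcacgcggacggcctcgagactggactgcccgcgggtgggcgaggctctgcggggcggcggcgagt

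The E-box CACGTG was found in windows of 3 of the 9 genes, Per1 at position -166 from the start, Cry1 at -60 and Tef at -127 and -138 of its 2 windows, that is in 4 of the 14 windows, and it occurs in 7.15% of all 32851 promoter windows. Cry1 and Cry2 also held the E'-box, at -79 and -166, a motif of 4.68% of windows. Per3 held the D-box TTATGTAA at -205 and -158, where 0.938% of windows have any match, and TTACGTAA was in 0 of the 14 windows against 0.119% of all windows. The ROR element core was in 3 of the 14 windows, a window each of Arntl, Clock and Per1. Its positions were 32 after the start for the Arntl window shown, -119 for Clock and -137 for Per1. The other Arntl window held no match. The core is common, being in 16.3% of all windows. The windows of Dbp and Npas2 held no match of these letters.

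The activators differed in how even they were. Arntl had log2 intensities of 7.50, 6.18 and 7.23 on tetraploid arrays 1, 2 and 3, against 7.28, 7.05 and 6.18 on diploid arrays 1, 2 and 3. Each fraction thus held 1 array with a low Arntl signal, tetraploid replicate 2 and diploid replicate 3, and the fractions overlapped. The highest array was 2.49-fold above the lowest. Clock, the partner of Arntl, was at 8.35, 8.44 and 8.46 on the tetraploid arrays and at 8.15, 8.56 and 8.15 on the diploid arrays. Its whole range was 1.34-fold, and its other probe set, at a mean of 7.57, lay within a similar span. Npas2, the alternative partner, had means over the 6 arrays of 4.17 and 4.12 for its 2 probe sets, under the filter at 5.06, so it was not tested. That filter is a rank among genes and not a detection call.

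The Per genes, which encode the repressors first induced by the activators, moved in different ways over the arrays. Per1 was at 7.77, 8.45 and 8.11 on tetraploid arrays 1, 2 and 3, against 7.61, 8.35 and 8.34 on diploid arrays 1, 2 and 3. Replicate 1 was the lowest array of each fraction. Per2 was at 6.68, 6.46 and 7.02 in tetraploid cells and at 6.22, 6.97 and 6.45 in diploid cells. Its highest arrays were tetraploid replicate 3 and diploid replicate 2. Per3, a paralog that is less needed for the rhythm than Per1 and Per2, was at 7.83, 7.76 and 8.13 in tetraploid cells and at 7.93, 8.37 and 8.09 in diploid cells. Its values overlapped between fractions, with tetraploid replicate 3 and diploid replicate 2 again the highest of their groups.

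Cry1 and Cry2 encode the cryptochromes, the strongest repressors of the loop. Cry1 was at 5.61, 5.05 and 5.94 on tetraploid arrays 1, 2 and 3, against 5.38, 6.21 and 4.84 on diploid arrays 1, 2 and 3. Tetraploid replicate 2 and diploid replicate 3 were the lowest of their fractions, as they were for Arntl, and both lay below the filter level of 5.06 that the mean of the gene passed. The span of the 6 arrays was 2.58-fold, a value that includes those dim arrays. Cry2 was far more even, at 7.29, 7.58 and 7.55 in tetraploid cells and at 7.33, 7.52 and 7.69 in diploid cells, a span of 1.32-fold in which replicate 1 was the lowest of each fraction.

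The output factors were nearly flat. Dbp, often used as a readout of liver clock phase, was at 10.87, 10.83 and 10.68 on tetraploid arrays 1, 2 and 3, against 10.87, 10.80 and 11.00 on diploid arrays 1, 2 and 3. The arrays spanned 1.25-fold, and the other Dbp probe set, with a mean of 9.16, had a log2 range of 0.24. The brighter Dbp probe set is of a kind that can match several transcripts. Tef was at 9.69, 9.89 and 9.88 in tetraploid cells and at 9.75, 9.93 and 10.05 in diploid cells, a span of 1.28-fold with replicate 1 lowest in each fraction. Intensities of different probe sets are not on a shared scale, so the genes are not ranked by level.

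**Figure D1:**
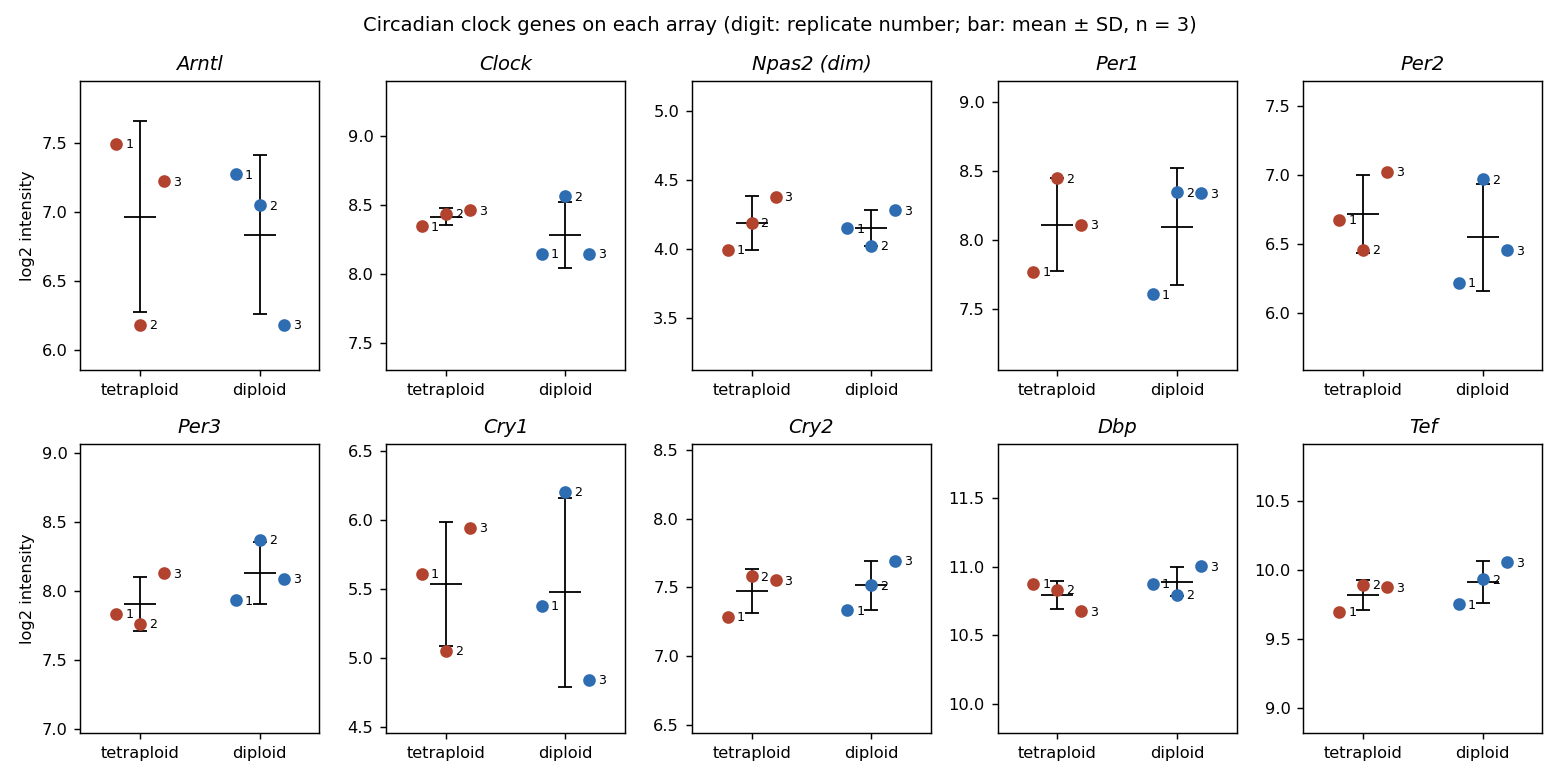
Log2 intensity (vertical axis, the same span in every panel) of the brightest probe set of each clock gene in tetraploid (left, red) and diploid (right, blue) hepatocytes, with the replicate number beside each point and bars for mean ± SD (n = 3). Arntl and Cry1 spread widest, from 6.18 to 7.50 and from 4.84 to 6.21, while Dbp and Tef stay close together and the fractions overlap in every panel.

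The spread within fractions set the clock genes apart from each other more than ploidy did. The within-fraction SD, pooled over both fractions, was 0.64 for Arntl, 0.58 for Cry1, 0.38 for Per1 and 0.34 for Per2, against a median of 0.12 over all 9295 tested genes. Only 0.463% of tested genes had a larger SD than Arntl and 0.613% a larger one than Cry1, while 2.32% exceeded Per1 and 3.58% exceeded Per2. The SD of Cry1 rests in part on its 2 arrays below the filter level. That of Per2 rests on its brightest probe set, and its other one, at a mean of 5.75, had an SD of 0.19. These 4 of 9 tested clock genes (44.4%) were in the upper 10% of genes by this SD, which holds 10% of all tested genes by construction. Per3, Clock and Cry2 followed at 0.21, 0.18 and 0.17. Tef, at 0.13, and Dbp, at 0.10, were near the median, and 59.6% of genes varied more than Dbp. This order is a description with no test. The genes were picked by name for their role, though with earlier results of these data known.

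**Figure D2:**
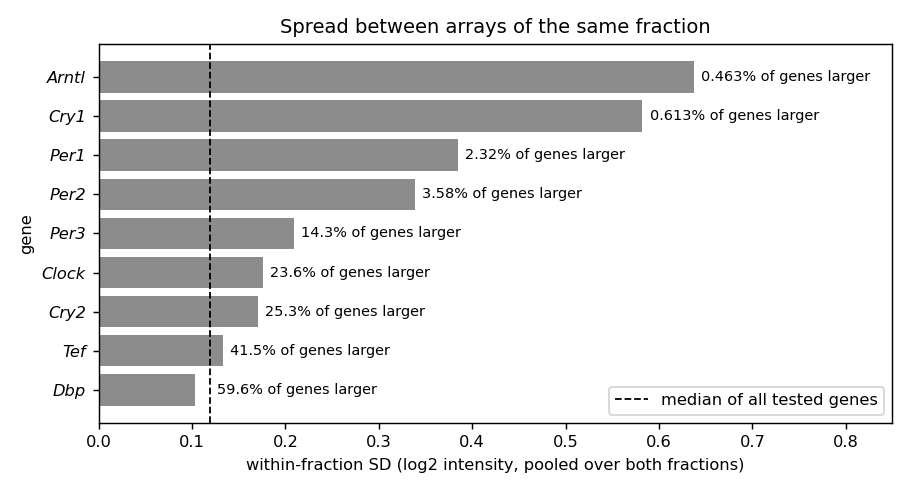
Within-fraction SD of log2 intensity (horizontal axis) for the 9 tested clock genes, with the share of the 9295 tested genes that had a larger SD beside each bar and the median of all tested genes as a dashed line. Arntl and Cry1 lie far above the line at 0.64 and 0.58, and Dbp lies below it at 0.10.

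Over the 9 tested clock genes each tetraploid array had a diploid array that was close to it. The mean absolute log2 difference between tetraploid replicate 1 and diploid replicate 1 was 0.16, between tetraploid replicate 2 and diploid replicate 3 it was 0.15, and between tetraploid replicate 3 and diploid replicate 2 it was 0.14. The other 6 combinations of a tetraploid and a diploid array lay between 0.33 and 0.47. In those closest combinations the largest gap of any clock gene was 0.46 for Per2, 0.33 for Per3 and 0.26 for Cry1, where combinations such as tetraploid replicate 1 and diploid replicate 3 differed by 1.31 in Arntl. Over all 9295 tested genes the same combinations differed by 0.17, 0.13 and 0.12, and the others by 0.16 to 0.23, so that by this measure tetraploid replicate 1 was slightly nearer to diploid replicate 2 (0.156) than to diploid replicate 1 (0.172). This likeness was noticed after the values were seen and carries no test. Whether the arrays that resemble each other share an animal, a collection time or a day was not tested, and the labels do not say.

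The clock profile of replicate 1 of both fractions combined a high Arntl signal with the lowest Per1, Cry2 and Tef signals. The high Arntl did not mark out replicate 1, since tetraploid replicate 3 had 7.23 and diploid replicate 2 had 7.05. The Tef probe set at a mean of 7.23 was also lowest on replicate 1 of each fraction. That at a mean of 5.96 was lowest on tetraploid replicate 1 but highest on diploid replicate 1. Tetraploid replicate 2 and diploid replicate 3 had a low Arntl beside a high Per1 signal, at 6.18 and 8.45 in the tetraploid array and at 6.18 and 8.34 in the diploid array, together with the lowest Cry1. The high Per1 did not mark out that diploid array, since diploid replicate 2 had 8.35. Tetraploid replicate 3 and diploid replicate 2 carried the highest Cry1 and Per2 of their fractions.

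**Figure D3:**
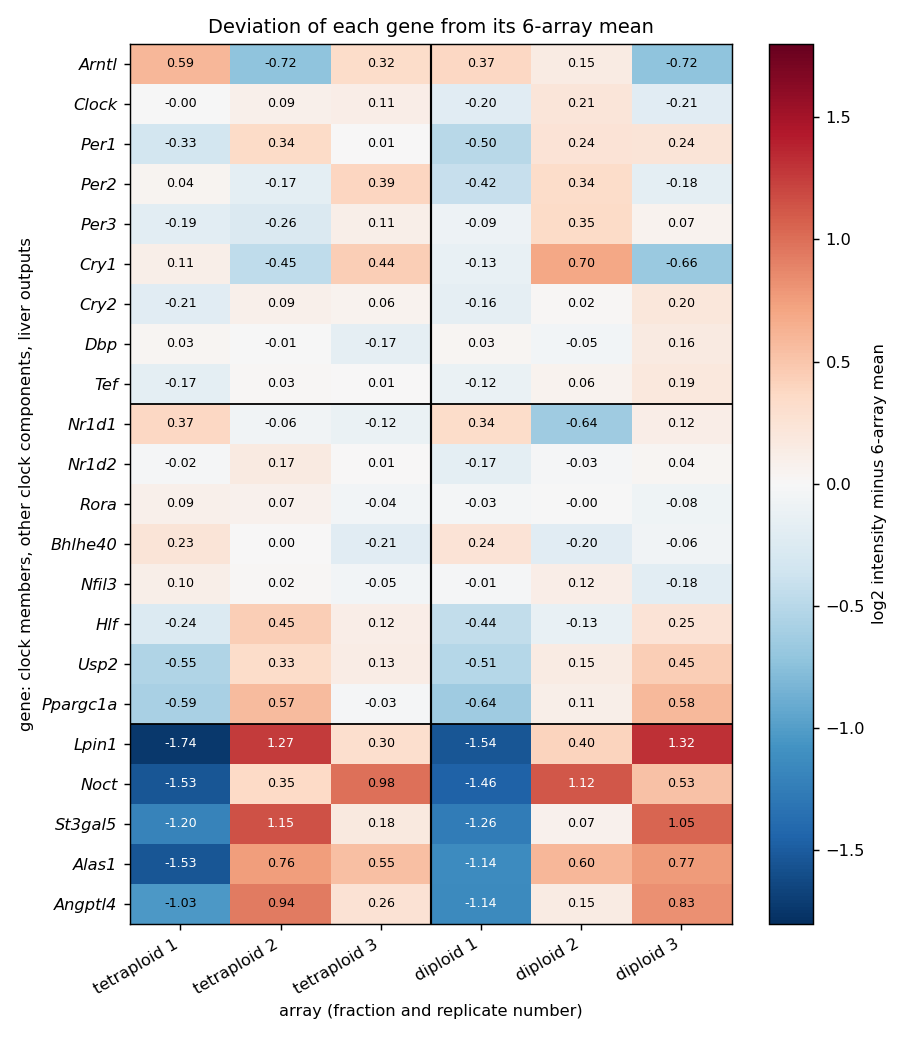
Log2 intensity of each gene minus its mean over the 6 arrays (colour scale and printed values), for the 9 tested clock genes, 8 other clock components and 5 rhythmic liver outputs, with the tetraploid arrays left and the diploid arrays right of the line. Arntl is lowest at -0.72 on tetraploid replicate 2 and diploid replicate 3, and Lpin1, Noct, St3gal5, Alas1 and Angptl4, drawn because they had the largest within-fraction SD of the 30 outputs, are lowest on replicate 1 of each fraction.

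The comparison of the fractions asks whether clock transcripts differ between tetraploid and diploid hepatocytes of the same age. By limma, 0 of the 9 tested clock genes passed an adjusted p of 0.05, where 0% of all tested genes did. At an unadjusted p under 0.05, 0 clock genes were higher and 0 lower, against 2.32% and 3.85% of all tested genes. In 0 of the 9 genes did the 3 tetraploid values lie wholly above or wholly below the 3 diploid values, against 5.22% and 7.08% of all tested genes. Of the 9, 5 had a higher and 4 a lower mean in tetraploid cells. The median log2 difference, tetraploid minus diploid, was 0.013, against -0.0064 over all tested genes, and the median size of the difference was 0.096, against 0.076.

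The precision of the ploidy difference depended on the gene. Arntl averaged 6.97 ± 0.69 in tetraploid and 6.84 ± 0.58 in diploid cells (SD, n = 3), which is a log2 difference of 0.13 ± 0.39 (SE). Its 95% interval, from a fit that takes the arrays as independent, ran from -0.77 to 1.03. Under that fit a level between 0.586 and 2.05 times the diploid one was compatible with the data. Cry1 had a similarly wide interval, from -0.77 to 0.89 around 0.060. Per1 averaged 8.11 ± 0.34 in tetraploid and 8.10 ± 0.43 in diploid cells (SD, n = 3), with an interval from -0.54 to 0.57 around a log2 difference of 0.013. For Per2 the log2 difference was 0.17 ± 0.21 (SE), with an interval from -0.32 to 0.67.

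The evenly measured genes gave narrower bounds. Dbp averaged 10.79 ± 0.10 in tetraploid and 10.89 ± 0.10 in diploid cells (SD, n = 3), which is a log2 difference of -0.096 ± 0.089 (SE) with a 95% interval from 0.810 to 1.08 times the diploid level. Tef differed by -0.091 ± 0.10 and lay between 0.796 and 1.11 times the diploid level. Cry2 differed by -0.041 ± 0.12 and lay between 0.800 and 1.18 times that level. For Clock the log2 difference was 0.13 ± 0.12, with bounds of 0.898 and 1.34 times the diploid level. The clock gene with the smallest p was Per3, which averaged 7.91 ± 0.20 in tetraploid and 8.13 ± 0.22 in diploid cells (SD, n = 3). Its log2 difference was -0.22 ± 0.14 (SE), limma adjusted p = 0.856, and its bounds were 0.683 and 1.08 times the diploid level.

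Other probe sets of the same genes did not always share the sign. Tef differed by 0.22 on a probe set with a mean of 7.23 and by 6.9e-06 on one with a mean of 5.96, against -0.091 on the brightest. The other 2 Per3 probe sets differed by 0.0068 and -0.16, and lay near or under the filter at means of 5.53 and 4.93. The Per2 probe sets gave 0.17 and 0.15, those of Clock 0.13 and 0.016, and those of Dbp -0.096 and -0.0017. Over all 18 clock probe sets, 0 had an unadjusted limma p under 0.05.

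**Figure D4:**
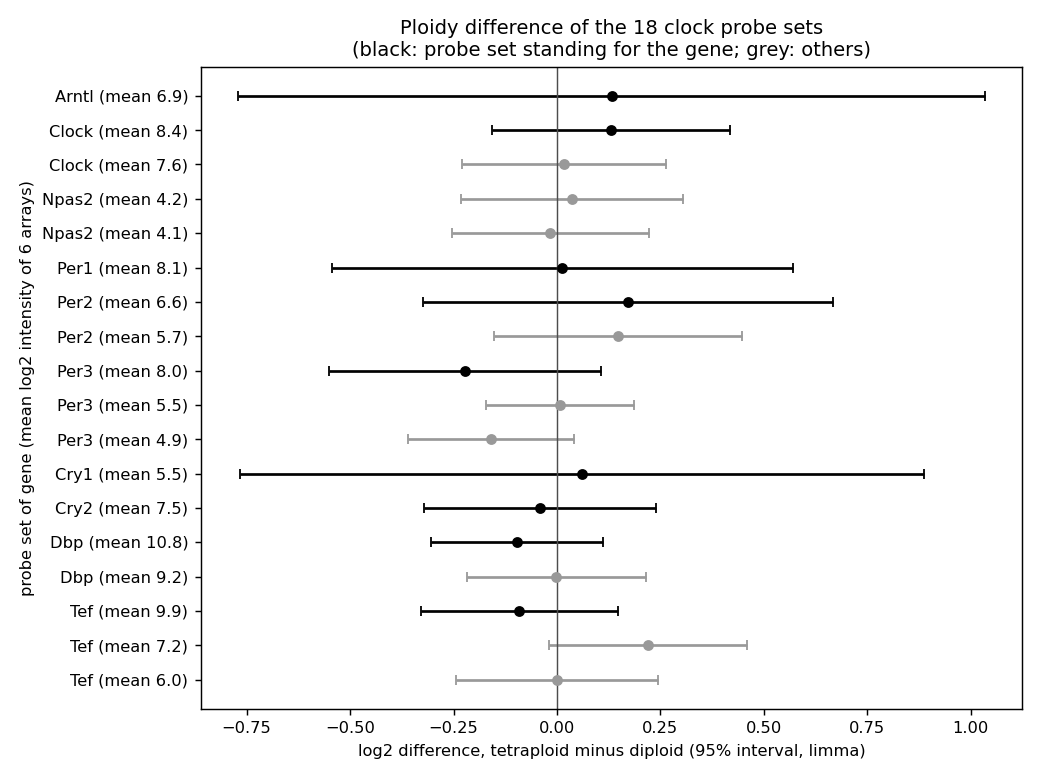
Log2 difference, tetraploid minus diploid (horizontal axis), with its 95% interval from limma, for each of the 18 clock probe sets, labelled with gene and mean log2 intensity. Black marks the probe set that stands for a gene in the test over genes, and grey marks the rest, with intervals from the test over all probe sets. All 18 intervals include 0, and those of Arntl and Cry1 are the widest.

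Other components of the clock were taken from a list of 35 genes written from general knowledge, of which 25 were tested. Of these, 15 had a higher and 10 a lower mean in tetraploid cells, with a median log2 difference of 0.048 and 0 past an adjusted limma p of 0.05. The repressor Nr1d1 (REV-ERB alpha), which acts on Arntl, was at 6.57, 6.15 and 6.08 on tetraploid arrays 1, 2 and 3, against 6.54, 5.56 and 6.33 on diploid arrays 1, 2 and 3. Diploid replicate 2 was its lowest array, and 1.79% of genes had a larger within-fraction SD. The log2 difference was 0.10 ± 0.089 (SE) for its paralog Nr1d2, 0.078 ± 0.072 for the activating receptor Rora, 0.015 ± 0.15 for the E-box repressor Bhlhe40 and 0.049 ± 0.096 for the D-box repressor Nfil3, and the fractions overlapped for each. Further probe sets gave 0.46 for Nr1d2, at a mean of 5.74, and 0.23 and -0.041 for Rora, at means of 8.95 and 5.44. Hlf, the PAR bZIP relative of Dbp and Tef, was at 8.36, 9.05 and 8.72 in tetraploid cells and at 8.16, 8.47 and 8.85 in diploid cells, lowest on replicate 1 of each fraction. Its other probe set, at a mean of 8.16, was lowest on tetraploid replicate 1 and diploid replicate 2. The log2 differences of these Hlf probe sets were 0.22 and 0.027. Bhlhe41 was under the brightness filter.

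Timeless and its binding partner Tipin, listed with the clock but known in mammals mainly for protecting replication forks, were the 2 components whose unadjusted limma p was under 0.05. Timeless averaged 6.97 ± 0.17 in tetraploid and 7.97 ± 0.28 in diploid cells (SD, n = 3). It differed by -1.00 ± 0.15 (log2, SE) with a limma adjusted p = 0.211. Tipin differed by -0.53 ± 0.15 (SE), limma adjusted p = 0.571. Both lay lower on every tetraploid than on every diploid array, as did the RNA-binding protein gene Nono at -0.15 ± 0.066, while the kinase gene Csnk1a1 lay higher on every tetraploid array at 0.11 ± 0.066. Separation on every array was seen in 1 higher and 3 lower of the 25 components, against 5.22% and 7.08% of all tested genes, and an unadjusted p under 0.05 in 0 higher and 2 lower, against 2.32% and 3.85%.

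Rhythmic liver outputs, genes known to cycle over the day in mouse liver, came from a list of 39 symbols (2 of them, Noct and Ccrn4l, name the same gene), of which 30 were tested. In tetraploid cells 17 had a higher and 13 a lower mean, with a median log2 difference of 0.028 and 0 past an adjusted limma p of 0.05. Wee1, a kinase that delays mitosis, differed by -0.26 ± 0.078 and the phenobarbital-inducible Cyp2b10 by -0.48 ± 0.16 (SE), while the vasopressin receptor gene Avpr1a differed by 0.25 ± 0.078 and the thioesterase gene Acot4 by 0.33 ± 0.10. Those 4 had an unadjusted limma p under 0.05, 2 in each direction, where 2.32% (higher) and 3.85% (lower) of all tested genes did. They were also the outputs whose fractions did not overlap, a count near the 5.22% (higher) and 7.08% (lower) of all tested genes. Close relatives of Cyp2b10 can bind the same probes, so its value is uncertain as to the gene. By within-fraction SD, 20 of the 30 (66.7%) were in the upper 10% of genes.

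Replicate 1 was the lowest array of each fraction for 20 of the 30 outputs and the highest for 4, Tfrc, Insig2, Elovl5 and Hsd3b7, a count made after the values were seen. The share of all tested genes with this pattern was not counted, so the count is not read as particular to the outputs. Over all 9295 tested genes, the deviations of tetraploid and diploid replicate 1 from their fraction means correlated at 0.57. The 3 outputs with the largest within-fraction SD, named after their values were seen, were Lpin1, Noct and St3gal5. Lpin1, a phosphatidate phosphatase and coactivator, was at 9.89, 12.90 and 11.93 on tetraploid arrays 1, 2 and 3, against 10.09, 12.03 and 12.95 on diploid arrays 1, 2 and 3. Its highest array was 8.33-fold above its lowest, and its log2 difference was -0.12 ± 0.90 (SE). Noct, which encodes the rhythmic protein nocturnin, was at 7.79, 9.67 and 10.30 in tetraploid cells and at 7.87, 10.44 and 9.85 in diploid cells. For both genes replicate 1 was low in each fraction, and the order of the other arrays differed: Lpin1 was highest on tetraploid replicate 2 and diploid replicate 3, Noct on tetraploid replicate 3 and diploid replicate 2. The sialyltransferase gene St3gal5 ran like Lpin1, at 8.66, 11.01 and 10.04 in tetraploid cells and at 8.61, 9.94 and 10.92 in diploid cells.

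The genes whose 6-array pattern was most like that of Arntl, by Pearson's r over the 6 arrays, were Arhgap24, Irgm2, Smim14, Morf4l2 and Lman1, with r between 0.993 and 0.997. Arhgap24 was at 7.60, 6.84 and 7.40 on tetraploid arrays 1, 2 and 3, against 7.43, 7.36 and 6.79 on diploid arrays 1, 2 and 3, low on the same arrays as Arntl. Those most like Dbp were Pigp, Trip6, Kcnk13, Snhg6 and Pbk, with r between 0.975 and 0.992. With 6 arrays such values are common: 278 tested genes had an r over 0.9 with Arntl and 76 with Dbp, so they are given as a description with no p.

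Hepatocyte identity was checked against its markers. All 10 measured hepatocyte markers passed the brightness filter, and their summed intensity had a tetraploid range of 312590 to 315890 and a diploid range of 308000 to 315150. For 12 measured endothelial genes, 10 of them past the filter, the sum ranged over 1299 to 1534 in tetraploid and 1233 to 1374 in diploid samples. For 11 Kupffer cell and macrophage genes, 7 of them past the filter, it ranged over 464 to 551 in tetraploid and 513 to 581 in diploid samples. Among endothelial genes Fcgr2b and Clec4g had log2 differences of 0.34 and 0.34, with an unadjusted limma p under 0.05. Of all tested genes, 2.32% were higher at that p. Of the 10 tested endothelial genes, 7 had a higher and 3 a lower mean in tetraploid cells, with Stab2 at -0.24 and Egfl7 at -0.12. The 12 measured stellate cell genes, 7 of them past the filter, summed to 944.5 to 990.5 in tetraploid and 889 to 991 in diploid samples. Of these, Ngfr at -0.22 and Pdgfrb at -0.24 (log2) lay lower on every tetraploid array, with an unadjusted limma p under 0.05. Of all tested genes, 3.85% were lower at that p. Both genes were near the filter, at means of 5.26 and 5.18. Reln lay higher on every tetraploid array, at 0.12, and 3 of the 7 tested stellate cell genes had a higher and 4 a lower mean. The sums of 2 lists did not overlap: 8 cholangiocyte genes, 2 of them past the filter, summed to 246.7 to 247.2 in tetraploid and 251.9 to 275.9 in diploid samples, and 9 lymphocyte genes, 3 of them past it, to 271 to 294 in tetraploid and 295 to 316 in diploid samples. Epcam, Krt7 and Ptprc, defining genes of those 2 cell types, were below the filter, and 0 marker genes passed an adjusted p of 0.05. The part of these cells in the clock values was not tested. Fewer expressing cells and less RNA per cell cannot be told apart in these bulk samples.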

How the data were processed

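RNA of 3 tetraploid and 3 diploid hepatocyte samples was hybridised to Affymetrix arrays, 1 array per sample, and the sample titles gave each its fraction and replicate number. The authors deposited linear intensities per probe set, made with RMA per the submitters' processing notes, a method that corrects background, equalises the arrays and summarises probes. Its version is not given in the sources used. Equalised arrays hide any difference in total RNA per cell, and array number limits the precision (median SE of a log2 difference 0.095).

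Values were converted to log2 and 64 controls left out. The platform annotation gave 20380 probe sets 1 symbol, 691 several and 1555 none. RefSeq (GRCm38.p6) held the Entrez identifier of 20351 and changed 0 symbols. The brightest probe set stood for each of 12393 genes, and the dimmest 25% (3098 genes, mean under 5.06) were left out. The fractions were compared by limma 3.58.1 in R 4.3.3 (lmFit, eBayes, two-sided, Benjamini-Hochberg over all 9295 genes). The procedure was tested on simulated data with independent noise for each gene and array. Those data did not hold the likeness between arrays described above. The within-fraction SD pools the 2 fractions. Promoter sequences are RefSeq's.

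The members, lists, tests and naming rule were chosen with earlier results of these data known. Named are all 10 members, the main other clock factors, list genes of smallest p, and the genes most like Dbp and Arntl over the arrays. Other genes, drawn or named for their spread or array pattern, were chosen after their values were seen. Alternatives covered the filter, probe set choice, offset, scaling, variance model, array weights, replicate block and leaving out each array.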

Additional observations from a re-analysis of the deposited data

How the results depend on the processing

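With 6 arrays and spreads as wide as those of Arntl and Cry1, differences smaller than about the distance from a value to its 95% bound were not distinguishable from 0. The filter choice, testing every probe set, the variance model and the replicate block leave a member difference unchanged by construction. Under alternatives that keep all arrays, these included, 84 of 87 member differences kept their sign. The exceptions were Tef at 0.043 with the mean of its probe sets, and Per1 at -0.021 with quantile normalization repeated and -0.088 with array weights. With 1 array left out, 46 of 54 kept it, and the ranges crossed 0 for Arntl (-0.19 to 0.52), Per1 (-0.23 to 0.18), Cry1 (-0.26 to 0.43) and Cry2 (-0.13 to 0.052). For the other members the ranges were 0.0073 to 0.38 (Per2), -0.33 to -0.10 (Per3), 0.060 to 0.27 (Clock), -0.17 to -0.020 (Tef) and -0.14 to -0.038 (Dbp). The members' median difference of 0.013 has no settled sign: it was -0.066 with the dimmest 50% left out, -0.021 with quantile normalization repeated, -0.065 with array weights, and -0.10 to 0.14 with 1 array left out. In 0 alternatives did a member pass an adjusted p of 0.05. Members at an unadjusted p under 0.05 numbered 0 to 1 with an array left out, the 1 being Clock without diploid replicate 2. Genes past an adjusted p of 0.05 numbered 0 to 1 with an array left out, the 1 being Hells without tetraploid replicate 1, and 9 with the replicate number as a replicate block, Timeless among them, none of them a clock member. Same-numbered arrays deviated together only for replicate 1: the correlations of deviations from the fraction means over 9295 genes were 0.57, -0.20 and -0.20, while tetraploid replicate 2 correlated best with diploid replicate 3 (0.70) and tetraploid replicate 3 with diploid replicate 2 (0.38), a hint from the data and not the design, so the numbers were not taken as pairs. The smallest share of genes with a larger SD than any member was 0.14% with the replicate block (Cry1). There the SD was the residual one of the fit with replicate number and ploidy, not the within-fraction SD. By the within-fraction SD the share was 2.69% with the dimmest 50% of genes left out, a filter under which Arntl and Cry1 are not tested. The causes of the other shifts were not tested.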

Other observations

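Gene groups outside the clock that other lists named were also uneven between arrays of a fraction. Of 16 tested glucocorticoid targets, 14 (87.5%) were in the upper 10% of genes by within-fraction SD, as were 10 of 14 tested immediate-early and CREB targets (71.4%) and 4 of 8 tested heat shock and temperature genes (50%). None of the 3 lists held a gene past an adjusted limma p of 0.05 or, unadjusted, a p under 0.05 between the fractions, where 0% of all tested genes passed the first and 2.32% (higher) and 3.85% (lower) the second. Dusp1 is on the first 2 of these lists, Nfil3 is shared with the clock components, and glucocorticoid targets share Tat and Pck1 with the rhythmic outputs.

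The genes below were picked after their values were seen. Fkbp5, a cochaperone of the glucocorticoid receptor, was at 8.62, 10.97 and 9.41 on tetraploid arrays 1, 2 and 3, against 8.42, 9.52 and 11.05 on diploid arrays 1, 2 and 3, a span of 6.18-fold that was highest on the arrays where Arntl was lowest. Of the 16 glucocorticoid targets, 12 were highest on tetraploid replicate 2 and diploid replicate 3, while 2 were lowest there, Sgk1 among them at 10.43 and 10.45. Of the 30 rhythmic outputs, 18 were highest on those arrays and 5 lowest. Of the 25 other clock components, 11 were highest there and 1 lowest. The 9 tested clock members were divided, with 2 highest and 2 lowest there. The deviations of those arrays from their fraction means correlated at 0.70 over all 9295 tested genes. The share of all tested genes that were highest there was not counted. The metallothionein gene Mt2 was highest on those arrays too, at 14.24 on tetraploid replicate 2 and 14.26 on diploid replicate 3, against 12.73 to 13.03 on the other 4. Hspa1b, an inducible heat shock protein gene, was at 8.90, 10.19 and 10.02 in tetraploid cells and at 8.40, 9.73 and 9.95 in diploid cells, lowest on replicate 1 of each fraction, as Per1 was. Nr4a1, an immediate-early nuclear receptor gene, was at 8.27, 7.39 and 7.76 in tetraploid cells and at 8.64, 7.65 and 7.37 in diploid cells, highest on replicate 1 of each fraction.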
